A study of Homo sapiens with 2 samples.

Results

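Small nucleolar RNA (snoRNA) host long non-coding RNAs (lncRNAs) were described in slow-cycling cells (SCC) and non-slow-cycling cells (non-SCC) of the Ewing sarcoma cell line SK-ES-1. The genes are the 10 host lncRNAs GAS5, ZFAS1, SNHG1, SNHG5, SNHG6, SNHG7, SNHG8, SNHG12, SNHG15 and SNHG16, found by gene symbol among the 53737 genes of the deposited tables. All 10 had 1 row each and passed the filter on low values, which 13444 genes passed (a level of 1 per-million unit or more in either library). The design had 1 SCC library and 1 non-SCC library, both from the same line with the genotype given as WT. How the slow-cycling cells were separated is not given in the sources used here, and the column headers call the libraries LRC and non-LRC. Neither group has a second library, so nothing could be checked against replicates, no test was possible, and every comparison describes these 2 libraries.

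snoRNAs are short nuclear RNAs that guide chemical modification of ribosomal RNA and other small RNAs. In mammals most of them sit inside introns of host genes and are released when the host transcript is spliced and its intron is trimmed. Box C/D snoRNAs guide ribose methylation and box H/ACA snoRNAs guide pseudouridylation. Many host genes, GAS5 among them, begin with a terminal oligopyrimidine (TOP) tract, the start that also marks mRNAs of the translation machinery and links them to mTOR signalling. The spliced GAS5 transcript has only short open reading frames and is degraded by nonsense-mediated decay (NMD) during translation. GAS5 was named growth arrest-specific 5 because its transcript accumulates in mouse cells that stop growing, so a slowly dividing fraction is a natural place to look at it.

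The 5′ ends are shown first, because a pyrimidine start is what this gene family is known for. GENCODE release 29 lists 136 transcripts for the 10 genes, of which 23 (16.9%) begin with a C followed by at least 4 pyrimidines. Over all 206694 GENCODE transcripts the share was 2.41%, and over 791 transcripts of ribosomal protein genes it was 20.9%. Such a start was found in at least 1 transcript of 8 of the 10 genes, in 6 of 29 for GAS5 and 1 of 25 for SNHG1. Genes with many transcripts reach 1 such start more easily. The share of all genes that reach it is not given here, so this count has no background. The commonest such start of 6 genes is given here as the first 24 bases of the transcript on GRCh38, with the opening pyrimidine run in capitals.
GAS5: CTTTTCgaggtaggagtcgactcc
SNHG16: CTTTTCgaggtcggccgcgtggct
SNHG5: CTTTTacgtcggccttcgcgagcg
ZFAS1: CTTTCgcgtctgcggtgcccggag
SNHG8: CTTTCacattcgggaagcgtcggg
SNHG12: CCTTTCTCCCCgccgcattcccgg

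GAS5 and SNHG16 share their first 11 bases, CTTTTCGAGGT. Among all GENCODE transcripts this prefix was found in 8, all of them from these 2 genes. They are also the 2 genes of the set with the highest ratio between the libraries, as described further on, and the shared prefix was looked for after the ratios had been seen. The match is a description of annotated starts and was not measured in these cells.

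RefSeq gave a promoter window, 250 bases before to 50 bases after an annotated transcript start on GRCh38.p14, for 8 of the 10 genes. SNHG6 and SNHG15 were not matched. A C followed by at least 4 pyrimidines, beginning within 10 bases of the start on the sense strand, was found in 6 of the 8 windows. It was found in 34.4% of the 15024 promoter entries of genes that passed the filter. Among entries of ribosomal protein genes it was in 65 of 78 (83.3%), and among those of other snoRNA host lncRNAs that passed in 7 of 13 (53.8%). The E-box CACGTG, the letters bound by MYC and its relatives and the same on both strands, was found in 1 window, that of SNHG7, against 9.43% of the entries. A TATA element (TATAAA or TATATAA on the sense strand within 50 bases before the start), searched after the sequences had been seen, was found in 4 of the 8 windows and in 1.86% of the entries. It was in 1 of the 13 entries of other host lncRNAs (7.69%) and in 6.41% of those of ribosomal protein genes. The 40 bases before and the 50 bases after the transcript start that each window is built on are shown for those 4 genes. That start lies 464 bases inside the full RefSeq span of ZFAS1 and 1110 bases inside that of SNHG12, and at the first base of the gene for SNHG5 and SNHG7. Capitals mark the pyrimidine run found within 10 bases of the start, which for SNHG7 begins 10 bases before it and ends before it.
ZFAS1, chr20:49278602-49278691, plus strand: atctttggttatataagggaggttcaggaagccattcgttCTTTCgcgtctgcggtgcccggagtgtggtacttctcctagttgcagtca
SNHG5, chr6:85678684-85678773, minus strand: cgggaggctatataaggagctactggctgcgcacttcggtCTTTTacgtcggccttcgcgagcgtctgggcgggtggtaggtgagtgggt
SNHG7, chr9:136728135-136728224, minus strand: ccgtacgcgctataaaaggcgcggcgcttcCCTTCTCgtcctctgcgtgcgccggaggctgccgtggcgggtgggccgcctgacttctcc
SNHG12, chr1:28581824-28581913, minus strand: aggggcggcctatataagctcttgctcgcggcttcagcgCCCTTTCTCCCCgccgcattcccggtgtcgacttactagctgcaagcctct

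The GAS5 and SNHG1 windows did not hold the pyrimidine start within 10 bases of the RefSeq start. For GAS5 the RefSeq start lies 1056 bases before the start of the GENCODE transcript shown above, so the window does not cover that start. Nothing about a factor or about translation follows from these letters.

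The 10 host lncRNAs were abundant in both libraries and close in level between them. Levels are given in per-million units, back-transformed from deposited log2(value + 1), a scale inferred from the numbers. Whether that scale divides by transcript length is not stated, so the order of the genes holds on the deposited scale only. In such bulk libraries, fewer cells with a transcript and less of it per cell cannot be told apart. They ran from 65.0 for SNHG12 in the SCC library to 893 for GAS5 in the same library. Among the 884 lncRNA genes that passed the filter, GAS5 ranked 1 in the SCC and 2 in the non-SCC library. Above it in the non-SCC library was SENP3-EIF4A1, at 790, a read-through model that overlaps the coding gene EIF4A1. SNHG12, the lowest of the set, ranked 33 and 35.

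**Figure D1:**
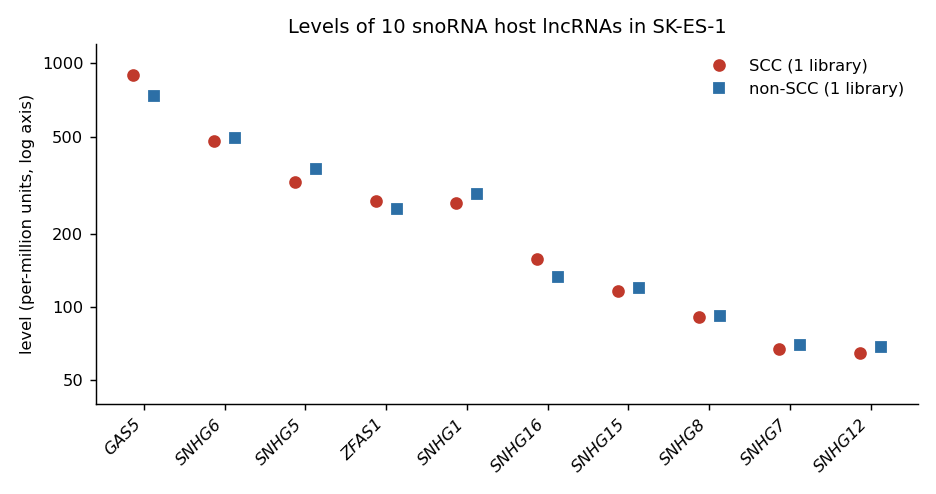
Level of each host lncRNA in per-million units (log axis) in the SCC library (circles) and the non-SCC library (squares), ordered by level in the SCC library, with 1 library per group and no error bars. GAS5 stands above the others at 893 and 731, and the circle lies above the square for GAS5, ZFAS1 and SNHG16.

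Of the 10 genes, 3 had a log2 ratio (SCC minus non-SCC) above 0 and 7 had one below 0. Below 0 lay 43.8% of all 13444 genes that passed the filter and 38.8% of the lncRNAs among them. Ratios moved with level in these libraries, however. Among the 2463 genes within the level range of the set 65.6% lay below 0, close to the 7 of 10 seen. The 25 other lncRNAs within that range differed from this, with 48% below 0 and a median log2 ratio of 0.032. Their ratios ran from -0.999 to 0.379, against -0.17 to 0.29 for the 10, and 1 of them was lower by 1.5-fold or more. The set was thus nearer in direction to all genes of its level than to these few lncRNAs. None of the 10 was 1.5-fold apart. Of all genes that passed, 5.38% were higher by 1.5-fold or more in the SCC library and 1.41% lower, and of the lncRNAs 13% and 5.2%. Among genes of the same level range, 15 were higher and 5 lower by that fold, 0.812% in all, so none in 10 is near the background. The median log2 ratio of the set was -0.038. It was 0.032 over all genes that passed, 0.084 over the lncRNAs and -0.058 over genes of the same level range. With the level trend removed, 6 of the 10 were above 0 and 4 below, and the median turned to 0.016.

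GAS5 (chromosome 1, 173863901 to 173869045, minus strand) had 893 per-million units in the SCC library, against 731 in the non-SCC library. This is a log2 ratio of 0.29, or 22.3% more, the largest difference of the set and the only one past 1.2-fold, which 17.4% of all genes that passed the filter exceeded in that direction. Of 103 genes within 0.5 log2 units of its level, 96.1% had a lower ratio, and the middle 95% of their ratios ran from -0.30 to 0.40. GAS5 thus lay near the upper edge of genes of like level but inside that range. It made up 32.6% of the summed level of the 10 genes in the SCC library and 27.9% in the other. The sum of all 10 was 2739 against 2618, and without GAS5 it was 1846 against 1888, so the higher sum in the SCC library came with GAS5.

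SNHG16 (chromosome 17, 76557764 to 76565348, plus strand), which carries 3 box C/D snoRNAs of the SNORD1 family, was the other gene near that edge. It had 157 per-million units in the SCC and 132 in the non-SCC library, a log2 ratio of 0.24. Of 924 genes of like level 96.5% had a lower ratio, with a middle 95% from -0.34 to 0.29. ZFAS1 (chromosome 20, 49278178 to 49289260, plus strand), the host of the SNORD12 snoRNAs that starts at the promoter of ZNFX1, had 273 and 252, a log2 ratio of 0.11. It was higher than 89.3% of 447 genes of like level.

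SNHG5 (chromosome 6, 85677007 to 85678733, minus strand), host of SNORD50A and SNORD50B, was the lowest of the set by ratio. It had 327 per-million units in the SCC library, against 368 in the non-SCC library, a log2 ratio of -0.17. SNHG1 (chromosome 11, 62851978 to 62855885, minus strand), host of SNORD22 and of SNORD25 to SNORD31, had 268 against 290 and a log2 ratio of -0.12. Genes of like level had median ratios of -0.092 for SNHG5 and -0.081 for SNHG1, so both lay within 0.08 log2 units of their level group.

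The other 5 genes differed by less than 5% between the libraries. SNHG6 (chromosome 8), host of SNORD87 and the most abundant after GAS5, had 481 in the SCC and 495 in the non-SCC library. SNHG15 (chromosome 7), host of SNORA9, had 117 and 120. SNHG8 (chromosome 4), host of SNORA24, had 91.2 and 92.1. SNHG7 (chromosome 9), host of SNORA17A and SNORA17B, had 67.3 and 69.9. SNHG12 (chromosome 1), which carries 4 snoRNAs, had 65.0 and 68.2. Their log2 ratios ran from -0.069 for SNHG12 to -0.014 for SNHG8. Each lay inside the middle 95% of genes of like level, and the ratios of SNHG6, SNHG8 and SNHG15 turned to above 0 with the level trend removed.

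**Figure D2:**
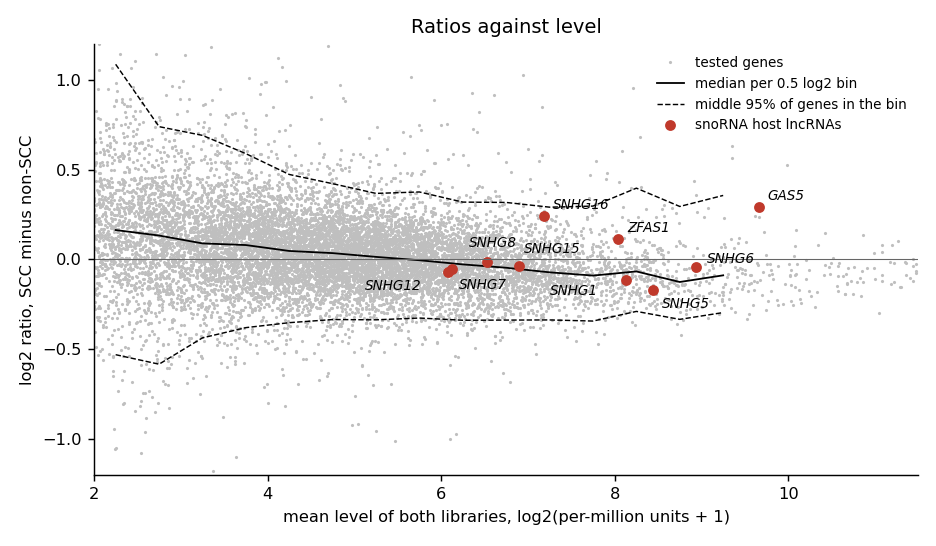
Log2 ratio (SCC minus non-SCC) against the mean log2 level of both libraries, for genes that passed the filter (grey, points beyond the axis limits not drawn) and the 10 host lncRNAs (red). The solid line is the median and the dashed lines the middle 95% of genes in bins of 0.5 log2 units. GAS5 and SNHG16 lie close to the upper dashed line or its end. ZFAS1 lies between that line and the median, and the others sit nearer the median.

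The ratios of the snoRNAs that these genes carry spread more widely than those of their hosts. Many of these snoRNAs lay at lower levels than the hosts, and no background of like level is given for them. The lowest ratio was that of SNORD1B, at 0 in the SCC library against 1.33, and the highest that of SNORD1A, at 2.40 against 1.08. By position, all 35 listed snoRNAs lay inside the span of their host. Of these, 6 were listed at 0 in both libraries and 29 passed the filter. Among the 29, 19 had a log2 ratio below 0 and 10 above, with a median of -0.31, and 4 were lower and 2 higher by 1.5-fold or more in the SCC library. Of 183 other snoRNA genes that passed, 95 were below 0, with a median of -0.037, and 31 were lower and 35 higher by 1.5-fold or more, a larger share (36.1%) than the 20.7% of the carried snoRNAs. Without the 8 snoRNAs of SNHG1, 11 of 21 were below 0 with a median of -0.10, so the lower median of the 29 rests largely on that gene. The kit selects polyadenylated RNA, which mature snoRNAs lack, and 29 of the 35 overlap an annotated exon of some transcript of their host. Reads of host and snoRNA can therefore not be told apart, and these levels need not be those of the mature snoRNA.

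All 8 snoRNAs of SNHG1 were lower in the SCC library, with log2 ratios from -0.95 to -0.14 and a median of -0.47. SNORD30 had 26.3 per-million units against 52.0 in the non-SCC library, SNORD27 had 55.1 against 83.5, and SNORD29 had 77.1 against 115. SNORD22, the longest of the 8, had 116 against 130. The 8 lie inside 1 gene and are not independent of each other, and each overlaps an annotated exon of some transcript of SNHG1. Their summed level was 496 against 662 while the host was at 268 against 290. GENCODE gives the sequence of 3 of them, shown because they include the lowest ratio of the host. Capitals mark the box C core TGATGA and the last CTGA, the letters of box D, near the ends where these boxes are bound by the snoRNP proteins.
SNORD30, chr11:62853663-62853732: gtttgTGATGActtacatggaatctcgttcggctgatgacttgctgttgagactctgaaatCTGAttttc
SNORD27, chr11:62855012-62855083: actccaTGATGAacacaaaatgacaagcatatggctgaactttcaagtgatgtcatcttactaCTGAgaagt
SNORD25, chr11:62855564-62855632: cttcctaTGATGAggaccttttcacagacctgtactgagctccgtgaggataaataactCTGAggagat

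The snoRNAs of GAS5 had ratios on both sides of 0. Of its 10 box C/D snoRNAs, 7 passed the filter, with 4 above 0 and 3 below and ratios from -0.33 to 0.25. SNORD47 had 125 per-million units in the SCC and 158 in the non-SCC library, SNORD80 had 106 and 122, and SNORD79 had 85.9 and 75.5. Their summed level was 528 in the SCC library and 564 in the other, while GAS5 itself was higher in the SCC library. SNORD77, SNORD78 and SNORD81 were listed at 0 in both libraries.

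Hosts with 1 to 4 snoRNAs varied. Lower in the SCC library were SNORD87 of SNHG6, at 38.7 against 51.0, SNORA9 of SNHG15, at 29.9 against 39.3, and SNORA24 of SNHG8, at 4.46 against 7.03. SNORD50A of SNHG5 was at 1.67 against 4.34, and SNORD50B at 10.3 against 13.7. The 3 measured snoRNAs of SNHG12 were higher, SNORA16A at 11.9 against 8.92, SNORD99 with a log2 ratio of 0.25 and SNORA44 at 2.48 against 2.45. In ZFAS1, SNORD12C was at 6.60 against 4.06 and SNORD12B at 5.91 against 5.03, while SNORD12 was at 10.6 against 13.4. The SNORD1 snoRNAs of SNHG16 were near the filter in both libraries, with SNORD1B listed at 0 in the SCC and at 1.33 in the non-SCC library.

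**Figure D3:**
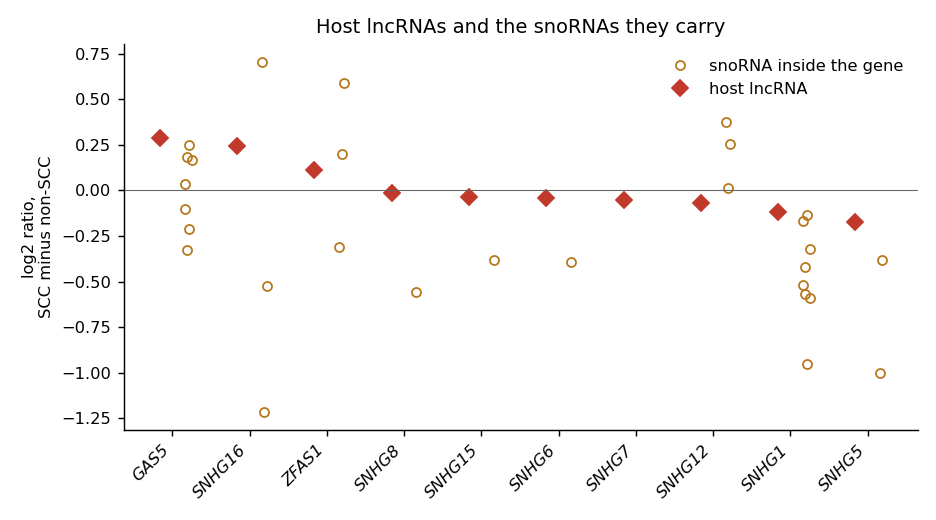
Log2 ratio (SCC minus non-SCC) of each host lncRNA (diamonds, ordered by ratio) and of the snoRNAs inside it that passed the filter (open circles). The diamonds span -0.17 to 0.29, the circles span -1.22 to 0.71, and all 8 circles of SNHG1 lie below 0.

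Other snoRNA host lncRNAs, a list of 21 symbols of which 19 had a row and 15 passed the filter, had a lower median than the 10. Of the 15, 11 were below 0 and 4 above, with a median log2 ratio of -0.28, and 3 were lower by 1.5-fold or more. The 3 were SNHG25, at 5.87 per-million units in the SCC library against 14.6, SNHG19, at 32.6 against 53.4, and SNHG21, at 3.64 against 6.77. DANCR had 149 against 201, a log2 ratio of -0.43, and SNHG3, the host of SNORA73A and SNORA73B, had 170 against 211. Also below 0 were SNHG10 at 8.80 against 13.3, SNHG4 at 18.4 against 23.8, SNHG11 at 19.4 against 23.8, SNHG20 at 12.6 against 14.7, SNHG9 at 16.9 against 17.2 and LRRC75A-AS1, now called SNHG29, at 660 against 681. Above 0 were EPB41L4A-AS1 at 44.4 against 35.0, LINC02001, now called SNHG30, at 6.09 against 4.70, C6orf48, now called SNHG32, at 335 against 284, and SNHG17 at 85.0 against 80.5. The 5 genes of the list within the level range of the 10 were DANCR, SNHG3, LRRC75A-AS1, C6orf48 and SNHG17. Those 5 ran from -0.43 to 0.24, with a median of -0.044, close to the -0.038 of the 10. With the level trend removed, the median of all 15 was -0.29 (-0.28 without that step). The list ran from -1.18 to 0.34, a wider range than that of the 10, and 8 of its genes were below 20 per-million units in the SCC library.

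Core proteins that bind snoRNAs were lower in the SCC library by small amounts. The 4 core proteins of box C/D particles had log2 ratios from -0.27 to -0.14. Fibrillarin, FBL, the methyltransferase, had 592 against 713, and its scaffold NOP56, itself a snoRNA host, had 260 against 308. The 4 core proteins of box H/ACA particles ran from -0.32 to -0.15, with NOP10 at 215 against 270, GAR1 at 90.4 against 108 and the pseudouridine synthase DKC1 at 136 against 151. Of 12 assembly factors, 11 were below 0 with a median of -0.12, among them NOLC1 at 197 against 228, the ATPase RUVBL2 at 141 against 165 and SHQ1 at 23.9 against 28.3. The exception, ZNHIT6, had 26.0 against 25.9. No gene of these 3 lists was 1.5-fold apart, and with the level trend removed the medians were -0.12 for box C/D proteins (-0.20 without that step), -0.19 for box H/ACA proteins (-0.25) and -0.079 for assembly factors.

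Protein-coding snoRNA hosts lay nearer the lncRNA hosts. Of 56 listed, 54 passed the filter, 40 were below 0 and 14 above, and the median log2 ratio was -0.076. Of 78 ribosomal protein genes, 63 were below 0 with a median of -0.068. The pyrimidine start was found in 65 of their 78 promoter entries. The medians of the coding hosts and the ribosomal protein genes turned to above 0, at 0.0036 and 0.018, with the level trend removed. The translation factor EIF4A2, a snoRNA host, had the highest ratio of the coding hosts, with 596 in the SCC and 489 in the non-SCC library, a log2 ratio of 0.29, as for GAS5. RPL13 followed at 410 against 348, while the splicing protein SNRPB had 559 against 667 and nucleolin, NCL, 1214 against 1376. EIF4A1 and PPAN, the 2 that did not pass, were listed at 0 in both libraries, and such a 0 can be a failed estimate. The read-through model SENP3-EIF4A1, which overlaps EIF4A1, had 699 against 790.

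**Figure D4:**
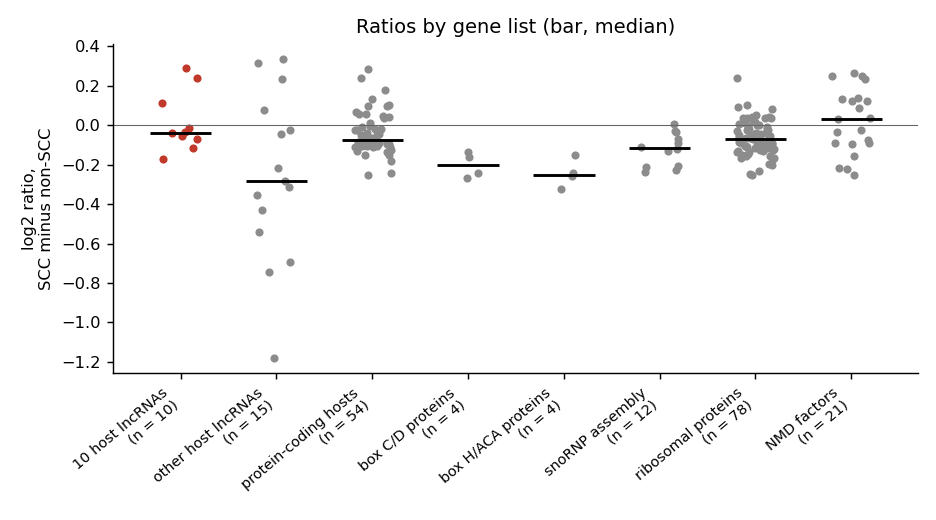
Log2 ratio (SCC minus non-SCC) of each gene that passed the filter, by list, with a bar at the median. The 10 host lncRNAs (red) have a median of -0.038, the other host lncRNAs -0.28, the box C/D and box H/ACA proteins -0.20 and -0.25, and the NMD factors 0.032.

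Protein-coding genes beside or overlapping the host lncRNAs, and the antisense gene GAS5-AS1, were set beside them. SLC3A2, the heavy chain of several amino acid transporters, starts 224 bases from SNHG1 on the other strand. It had 158 per-million units in the SCC library, against 103, a log2 ratio of 0.61, while SNHG1 had -0.12. WDR74, on the other side of SNHG1, had 82.1 against 89.7. Overlapping GAS5 in GENCODE, ZBTB37 had 5.49 against 4.22 and the antisense gene GAS5-AS1 had 5.78 against 2.69. ZNFX1, head to head with ZFAS1, had 11.0 against 8.64. At SNHG12, TRNAU1AP had 33.3 against 34.4 and RAB42 had a log2 ratio of -0.37. At SNHG15, CCM2 had 53.1 in both libraries, and MYO1G was listed at 0.

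SNHG7 overlaps FAM69B on the opposite strand by 2685 bases in GENCODE, and FAM69B, at 63.4 against 69.2, was close to SNHG7 in both libraries. The kit marks strand, but whether the counting used it is not given, so reads of SNHG7 and FAM69B may not have been kept apart. LCN10, near SNHG7, was at 0.815 against 1.07, and PRSS12, near SNHG8, did not pass the filter. Further neighbours within 20 kb, MCMDC2 of SNHG6 and PRCD and ST6GALNAC2 of SNHG16, were listed at 0 in both libraries.

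Likeness to a host lncRNA was measured as the distance over its 2 log2 values among lncRNA genes outside the set. Nearest to SNHG5, the gene with the lowest ratio, were ATP6V1G2-DDX39B (distance 0.25), C6orf48 (0.38) and FEZF1-AS1 (0.41). Nearest to GAS5, the gene with the highest ratio, were SENP3-EIF4A1 (0.37), LRRC75A-AS1 (0.45) and ATP6V1G2-DDX39B (1.51). All 3 nearest to GAS5 had a ratio below 0, but ATP6V1G2-DDX39B, at 371 in the SCC and 414 in the non-SCC library, was far below its level. SENP3-EIF4A1 and ATP6V1G2-DDX39B are also read-through models over coding genes. This leaves LRRC75A-AS1, too little to compare GAS5 with lncRNAs of like level.

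Labels were read against markers. All 6 genes listed as markers of Ewing sarcoma lines, among them NR0B1 at 95.3 against 118 and STEAP1 at 294 against 288, were present in both libraries. Of 8 markers of other cell types, PTPRC, PECAM1, MYOG, DES and ALB were listed at 0 in both, and EPCAM had 1.37 against 1.21. The fibroblast genes DCN, at 15.1 against 11.7, and COL1A1, at 3.19 against 1.15, were higher in the SCC library, and their part in the ratios above was not tested. The SCC library had 14606 lines above 0 and the non-SCC library 14197. The read depth of both was unknown, so no counting interval could be given.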

How the data were processed

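RNA of 2 SK-ES-1 libraries, 1 of slow-cycling cells (SCC) and 1 of non-slow-cycling cells (non-SCC), was isolated as total RNA with Trizol and sequenced from a stranded mRNA kit, per the labels' protocols. The submitters' processing notes name hg38, and no source used here names the aligner, counter or annotation. The authors deposited 1 column per library called normalized, per the file headers. The deposited values were taken as log2(value + 1) from the numbers: none was negative, the highest were 15.6 and 15.2, and back-transformed they summed to 983638 and 984120, close to per-million values. Read depth is unknown.

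Here the 53826 lines were summed per gene ID in per-million units (174 lines carried a locus suffix), giving 53737 genes, of which 51252 matched RefSeq (GRCh38.p14). Genes with at least 1 unit in at least 1 library were kept. Ratios are differences of log2(value + 1), with no further scaling and a 1.5-fold threshold. Like level means within 0.5 log2 units of mean level. The code was tested on simulated data. Members and lists were chosen with earlier results of these data known. Named are all members and their neighbours within 20 kb, measured genes of the lists of other host lncRNAs and of snoRNAs, up to 5 genes of largest absolute ratio per other list, 3 nearest lncRNAs in level and MYC, MTOR, LARP1 and RPS6. GAS5-AS1, EIF4A1, PPAN and further named members of the short lists were chosen after their values were seen. An item that these rules name is not reported here. Sequences are from RefSeq and GENCODE release 29. Python 3.11.15 with numpy 2.4.6 and pandas 2.3.3 was used. Alternatives were 2 other scalings, a pseudocount of 0.1, removal of the level trend in 20 bins, no filter, a minimum level of 5, folds of 1.2 and 2, the largest row per gene, gene class, and leaving out members.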

Additional observations from a re-analysis of the deposited data

How the results depend on the processing

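No alternative moved the ratio of any of the 10 genes by 0.1 log2 units. That is the distance used here to call a value moved in the absence of replicates. Most alternatives could hardly move these ratios. Each gene has 1 row, all lie far above the pseudocount, and the 2 scalings shift all genes nearly alike. The largest shift, 0.086, came from removing the level trend. Removing the level trend turned SNHG6 to 0.046, SNHG8 to 0.028 and SNHG15 to 0.0053, which gave 4 genes below 0 and 6 above and a median of 0.016. Leaving out each gene in turn kept the median between -0.040 and -0.036. At 1.2-fold 1 of the 10 was apart, and at 2-fold none was.

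Over all genes, 723 were at least 1.5-fold higher and 189 lower. These counts were 2341 and 1020 at 1.2-fold, 255 and 58 at 2-fold, 436 and 356 with the trend removed, and 255 and 70 at a minimum level of 5. With a pseudocount of 0.1, 311 were lower. Among lncRNAs they were 115 and 46, and among protein-coding genes 71 were lower. With no filter the median of the other host lncRNAs was -0.044 and that of the carried snoRNAs -0.14, since genes listed at 0 in both libraries then count at 0. Chosen after seeing the data, snoRNAs at 4 units or more in both libraries had a median of -0.26 and those outside SNHG1 one of -0.10.

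No paired analysis was possible because each group has 1 library.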

Other observations

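NMD factors, which act on spliced host transcripts such as that of GAS5, had no common direction. Of 21, 11 had a log2 ratio above 0 and 10 below, with a median of 0.032, equal to that of all genes that passed the filter, and none was 1.5-fold apart. Higher in the SCC library were the decay factors XRN1, at 11.2 per-million units against 9.17, DCP2, at 17.1 against 14.2, and DCP1A, at 20.5 against 17.1. So was the NMD factor UPF3B, at 77.4 against 65.7. The exon junction protein MAGOH was at 147 against 175.

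Of 14 genes of the mTOR and TOP pathway, 13 passed the filter, with 8 below 0 and a median of -0.023. MTOR was at 51.1 against 53.9, LARP1, the protein that binds TOP starts, at 179 against 176, and RPS6 at 5001 against 4872. MYC was at 375 in the SCC and 381 in the non-SCC library. EIF4EBP1, a repressor of cap-dependent translation that mTOR phosphorylates, was lowest by ratio at 366 against 438, and EIF4E was listed at 0 in both.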
